A study of Mus musculus with 7 samples.

Results

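The small non-coding RNAs and small nucleolar RNA (snoRNA) host genes of mouse salivary glands were taken from a table of 23366 gene symbols, of which 131 matched. Members were chosen by symbol alone: 36 rows starting with Snora, 69 with Snord, 9 with Scarna, 3 with Rnu, 11 with Snhg, and the single rows Rmrp, Rpph1 and Terc. No measured value entered that rule, but the family was proposed with results of these libraries known. Calls on its members, and their adjusted p-values, therefore describe the libraries and are not independent evidence. The 11 Snhg rows are snoRNA host genes. They were taken as the polyadenylated set against which the 120 small RNA rows were read, without a check of each transcript.

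RNA sequencing compared 3 groups of mouse gland: submandibular gland at postnatal day 18 (P18, 2 libraries), parotid of adults aged 12 weeks (3 libraries) and parotid at P18 (2 libraries). The labels name no strain, sex, genotype or treatment for any group, and no agent. All 7 libraries are labelled as polyadenylated RNA and were made from 1 µg of total RNA with an Illumina TruSeq kit. A label calls the material whole tissue, whereas the extraction text speaks of isolated epithelial cells. Nothing says that replicates came from separate animals, so a p-value here reflects the scatter among the libraries at hand and that scatter may be technical.

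Total counts were 12844534 to 28856127 per library. TMM factors, which rescale library sizes where a few genes take many of the counts, ran from 0.640 to 1.72 and were lowest in the adult libraries. The labelled glands carried their markers. The 3 mucous and immature submandibular markers (Smgc, Muc19, Agr2) summed to 176676 and 218852 CPM (counts in each 1000000 of the TMM-scaled library size) in P18 submandibular gland, 0.145 to 243 CPM in adult parotid and 4.49 and 5.65 CPM in P18 parotid. The 4 serous acinar markers (Bpifa2, Amy1, Aqp5, Prb1) summed to 369 and 564 CPM in P18 submandibular gland, 533911 to 643631 CPM in adult parotid, and 70474 and 19811 CPM in P18 parotid. Adipocyte markers (6 genes) summed to 0.829 and 0.806 CPM in P18 submandibular gland, 1287 to 1835 CPM in adult parotid, and 1661 and 5714 CPM in P18 parotid, whose second library also had the higher skeletal muscle sum (676 and 3637 CPM).

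Most of these small RNAs guide or catalyse the processing of other RNAs. Box C/D snoRNAs (Snord) guide 2′-O-methylation of ribosomal RNA, box H/ACA snoRNAs (Snora) guide pseudouridylation, and Cajal body RNAs (Scarna) guide the same modifications on spliceosomal small nuclear RNAs. Rpph1 is the catalytic RNA of RNase P, which removes the leader of transfer RNA precursors, and Rmrp is the related RNA of RNase MRP, which cuts precursor ribosomal RNA. Terc is the template RNA of telomerase. In mammals most snoRNAs are cut out of introns of a host gene, and the mature small RNAs carry no long poly(A) tail, so that a library built on poly(A) selection recovers them only in part.

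The sequences below show what the main classes look like and which members the results turn on. They are GENCODE M21 transcripts on build GRCm38, whereas the deposited counts were made on mm9. Rpph1 (chr14:50807449-50807767, minus strand, bases 1 to 300 of 319) and Rmrp (chr4:43492788-43493058, minus strand) took most small RNA counts at P18. Rnu12 (chr15:83149644-83149794, plus strand), the U12 RNA of the minor spliceosome, had no count in any adult library.
Rpph1: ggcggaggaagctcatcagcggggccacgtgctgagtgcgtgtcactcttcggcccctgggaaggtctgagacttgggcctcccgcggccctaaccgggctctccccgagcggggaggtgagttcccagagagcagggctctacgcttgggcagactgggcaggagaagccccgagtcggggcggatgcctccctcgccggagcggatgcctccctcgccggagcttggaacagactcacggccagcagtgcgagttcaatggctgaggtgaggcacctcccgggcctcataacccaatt
Rmrp: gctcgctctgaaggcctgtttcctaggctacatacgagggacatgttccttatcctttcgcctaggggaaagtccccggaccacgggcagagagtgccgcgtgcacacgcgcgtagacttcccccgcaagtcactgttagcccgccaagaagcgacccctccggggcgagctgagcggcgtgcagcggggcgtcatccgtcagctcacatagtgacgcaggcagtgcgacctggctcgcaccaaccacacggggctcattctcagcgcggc
Rnu12: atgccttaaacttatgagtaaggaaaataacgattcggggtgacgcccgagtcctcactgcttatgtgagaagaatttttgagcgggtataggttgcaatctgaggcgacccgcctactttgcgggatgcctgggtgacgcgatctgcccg

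The snoRNAs below are pairs of a member that was lower in adult parotid and a member of the same class that was not. Snord15b (chr7:99479563-99479707, minus strand) was lower and Snord96a (chr11:48802032-48802112, plus strand) higher, with capitals on the C box near the 5′ end and the D box near the 3′ end. Snora23 (chr7:110046364-110046547, plus strand) was lower and Snora65 (chr2:32963291-32963420, plus strand) differed by -0.02 on the log2 scale, with capitals on the ACA box near the 3′ end. Snora23 and Snora65 were picked after their values were seen.
Snord15b: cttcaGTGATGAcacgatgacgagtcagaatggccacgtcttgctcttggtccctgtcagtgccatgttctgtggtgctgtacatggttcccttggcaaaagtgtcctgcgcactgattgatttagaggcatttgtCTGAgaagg
Snord96a: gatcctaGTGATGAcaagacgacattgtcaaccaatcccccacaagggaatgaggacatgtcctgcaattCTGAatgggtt
Snora23: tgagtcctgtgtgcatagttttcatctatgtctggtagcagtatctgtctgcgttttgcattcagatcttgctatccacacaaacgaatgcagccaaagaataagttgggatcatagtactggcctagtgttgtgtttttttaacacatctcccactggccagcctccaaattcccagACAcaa
Snora65: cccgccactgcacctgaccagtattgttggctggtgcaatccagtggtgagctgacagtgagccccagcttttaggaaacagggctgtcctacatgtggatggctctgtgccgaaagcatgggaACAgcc

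Terc (chr3:96414437-96414859, minus strand) is shown by bases 1 to 88 of 423, with capitals on CTAACCCT, the letters of the template for telomere repeats.
Terc: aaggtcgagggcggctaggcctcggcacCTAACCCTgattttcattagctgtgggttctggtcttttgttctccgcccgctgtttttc

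The boxes followed the symbols. A C box (ATGATGA or GTGATGA, searched on the transcript strand in the first 25 bases) stood in 58.8% of the 68 annotated Snord transcripts, in 0 of 36 Snora transcripts and in 0.363% of 58200 windows of 85 bases from protein-coding transcripts. A D box (CTGA, in the last 15 bases) stood in 89.7% of Snord, 5.56% of Snora and 7.07% of the windows. ACA at 2 to 4 bases from the 3′ end stood in 94.4% of Snora, 2.94% of Snord and 4.51% of the windows. A row without these letters is not thereby another kind of RNA.

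The adult parotid libraries held almost none of the small RNAs that the P18 libraries of both glands held. All 120 small RNA rows together took 0.787% ± 0.0189 of counts in P18 submandibular gland (SD, n = 2), 0.00245% ± 0.000934 in adult parotid (n = 3) and 0.835% ± 0.135 in P18 parotid (n = 2), a share 341-fold lower in adult than in P18 parotid. Per library this was 7999 and 7732 ppm (counts in each 1000000) in P18 submandibular gland, 14.8, 33.4 and 25.4 in adult parotid, and 7400 and 9307 in P18 parotid. The adult values did not overlap those of either P18 group, and the P18 glands overlapped each other. In bulk tissue, fewer cells with an RNA and less of that RNA per cell cannot be told apart.

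The Snhg hosts moved far less. They took 0.00893% ± 0.000549 of counts in P18 submandibular gland, 0.00598% ± 0.000971 in adult parotid and 0.0102% ± 0.00110 in P18 parotid (SD, n = 2, 3 and 2). Without the 10 most abundant genes over all libraries, the Snhg share was 0.0136% in P18 submandibular gland, 0.0152% in adult parotid and 0.0112% in P18 parotid, so that the order of the parotid groups turned. Set against each library's own Snhg counts, there were 85.8 and 90.5 small RNA counts per Snhg count in P18 submandibular gland, 0.302, 0.494 and 0.403 in adult parotid, and 67.7 and 99.2 in P18 parotid. This ratio needs no composition factor, and it separated the adult libraries from the others as the shares did.

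**Figure D1:**
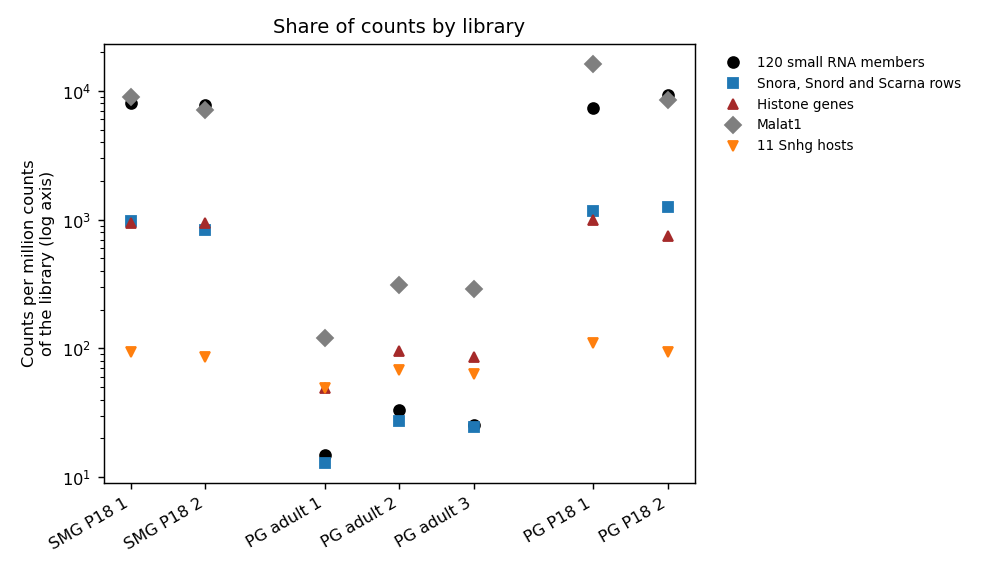
Counts in each 1000000 counts of a library on a log axis, for submandibular gland (SMG) at P18, adult parotid (PG) and P18 parotid, 1 point per library for the small RNAs, their guide classes, histone genes, Malat1 and the Snhg hosts. The small RNA members sit at 7400 to 9307 in the P18 libraries of both glands and at 14.8 to 33.4 in adult parotid, while the Snhg hosts sit between 48.9 and 109 in all 7.

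The make-up of the small RNA counts differed as well. Rpph1 and Rmrp together took 86.3% and 88.3% of them in P18 submandibular gland, 11.9%, 16.6% and 2.19% in adult parotid, and 82.6% and 85.3% in P18 parotid. Snord rows took 4.03% and 3.07% in P18 submandibular gland, 55.1%, 44.0% and 50.0% in adult parotid, and 6.76% and 3.87% in P18 parotid. The adult remainder was thus mostly Snord and Snora counts, although it came to 236, 734 and 732 counts per library. The guides alone (Snora, Snord and Scarna rows) took 983 and 832 ppm of counts in P18 submandibular gland, 12.9, 27.5 and 24.4 in adult parotid, and 1164 and 1259 in P18 parotid, a share 56.2-fold lower in adult than in P18 parotid. These are shares of counts and not per length.

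Of the 120 small RNA rows, 105 had a count in P18 submandibular gland, 93 in adult parotid and 109 in P18 parotid. At least 10 counts in every library of the group were found for 49 rows in P18 submandibular gland, 5 in adult parotid and 57 in P18 parotid. Among all members, 72 passed edgeR's filter on low counts (63 small RNAs and 9 Snhg hosts). The other 59 were not tested: 10 had no count anywhere and 49 had at most 57 counts over the 7 libraries. Of the 63 tested small RNAs, 37 had fewer than 10 counts in each adult library and so passed only through the P18 libraries. This number is a minimum, since the filter works on counts relative to library size. Rmrp, with 10, 73 and 6 adult counts, also passed only through the P18 libraries. Counts and medians over the tested rows therefore describe the rows that passed and support no statement on all members.

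Between adult and P18 parotid, edgeR's quasi-likelihood test called 47 of the 72 tested members at an adjusted p under 0.05, 45 lower and 2 higher in adult. Over all 15129 genes tested, 15.1% were called lower and 10.7% higher in this comparison. All 45 members called lower were small RNAs, of 63 tested. The median log2 difference of the tested small RNAs was -2.59, also with the 3 rows without an adult count set at their lower bound, against -0.01 over all genes tested and 0.52 over the 9 Snhg hosts. No Snhg host was called lower and 1 was called higher. By class, 21 of 27 Snora, 13 of 24 Snord, 6 of 6 Scarna and 2 of 3 Rnu rows were called lower, as were Rpph1, Rmrp and Terc. Plain library sizes gave 0 higher and 62 lower members, where 10957 of all 15129 genes were called. Leaving out any 1 of the 7 libraries left 33 to 45 members called, and 30 of the 47 calls stood whichever library was left out.

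**Figure D2:**
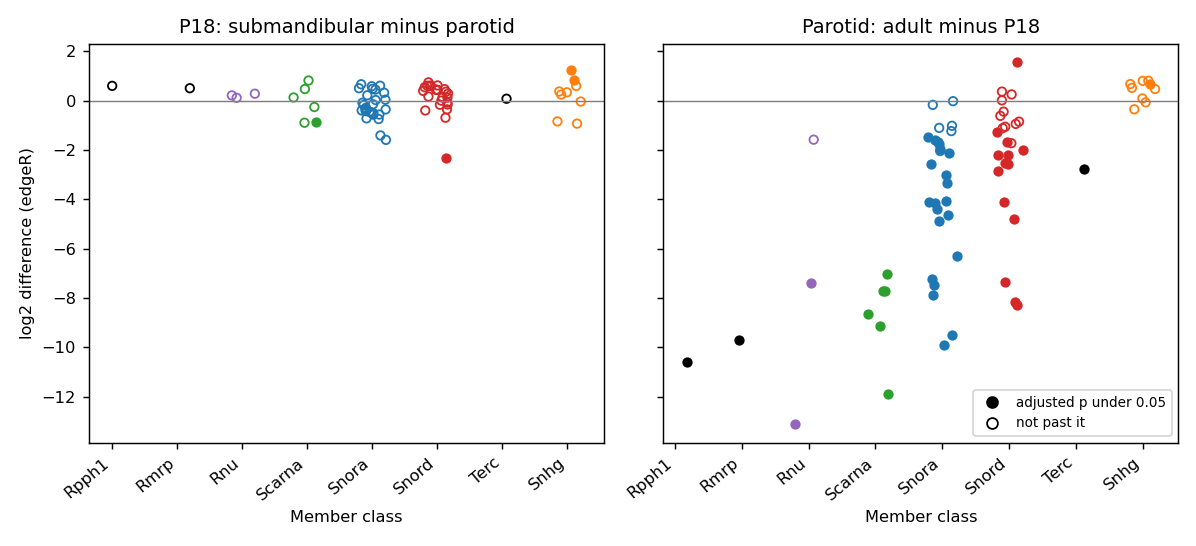
Log2 differences from edgeR (vertical axis) for the 72 tested members by class (horizontal axis), P18 submandibular minus P18 parotid on the left and adult minus P18 parotid on the right, 1 point per row, filled where the adjusted p was under 0.05. In the age comparison the 6 Scarna rows sit between -11.88 and -7.01, while the 9 Snhg hosts sit between -0.35 and 0.81 with TMM factors, where plain library sizes put Snhg1 at -0.56.

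Among the catalytic RNAs, Rpph1 had 3952 and 4214 CPM in P18 submandibular gland, 1.76, 3.12 and 0.483 CPM in adult parotid, and 2255 and 3137 CPM in P18 parotid. In counts this was 18, 49 and 10 in the adult libraries against 49686 and 70012 in P18 parotid. It was lower in adult parotid by 10.58 on the log2 scale (SE 0.83, edgeR adjusted p = 0.00124), with no overlap, and the difference was -11.33 without the second adult library. Per length, in the deposited TPM (transcripts in each 1000000), Rpph1 ranked 2 and 2 of 23366 rows in the P18 parotid libraries and 7 and 7 in P18 submandibular gland. In adult parotid it ranked 6789, 4548 and 11132.

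Rmrp had 2313 and 2365 CPM in P18 submandibular gland, 0.979, 4.64 and 0.290 CPM in adult parotid, and 1307 and 1993 CPM in P18 parotid. The second adult library, with 73 counts, stood above the other adult libraries, with 10 and 6, but far below every P18 library. The log2 difference between adult and P18 parotid was -9.70 (SE 1.08, edgeR adjusted p = 0.00247). That second adult library also held most of the submandibular marker counts among adults, at 243 CPM in sum against 0.294 and 0.145 CPM in the others. The part of this in its Rmrp value was not tested, and without it the difference was -11.48.

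Terc was rare everywhere, with 2.07 and 1.54 CPM in P18 submandibular gland, 0.0979, 0.191 and 0.386 CPM in adult parotid, and 1.997 and 1.43 CPM in P18 parotid. All adult values were below all P18 values. It was lower in adult parotid by 2.77 on the log2 scale (SE 0.52, edgeR adjusted p = 0.0115), resting on 12 adult counts in all, and the difference was -3.43 without the third adult library.

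Of the Rnu rows, Rnu12 had 95.6 and 60.4 CPM in P18 submandibular gland, 0 in each adult library, and 66.7 and 61.8 CPM in P18 parotid. Against a floor of 3 counts over the adult group this is at least 999-fold lower in adult than in P18 parotid (edgeR adjusted p = 0.000739). Rnu11, the U11 RNA that joins U12 in the minor spliceosome, had 112 and 63 counts in P18 submandibular gland, 1, 0 and 0 in adult parotid, and 69 and 147 in P18 parotid. Its ratio of P18 to adult parotid was 227, with a 95% exact interval from counts of 40.3 to 9015. Rnu73b, an older name for a C/D snoRNA in an intron of Rps3a1, had 0, 5 and 5 adult counts against 19 and 9 in P18 parotid and was not called (log2 difference -1.58, SE 0.75, edgeR adjusted p = 0.154). Such intervals and floors allow for counting error alone, because a read is not an independent molecule.

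The Cajal body RNAs were near 0 in all adult libraries. Scarna10, known in humans as U85 and a guide for the U5 RNA, had 2218 and 2289 counts in P18 submandibular gland, 0, 1 and 0 in adult parotid, and 1530 and 3265 in P18 parotid. Its ratio of P18 to adult parotid was 5044, with an exact interval from 905 to 199249, and the second adult library held that 1 adult count. Scarna6 had 707 and 551 counts in P18 submandibular gland, 1, 1 and 2 in adult parotid, and 577 and 1095 in P18 parotid. The difference of Scarna6 was -8.66 (SE 0.42, edgeR adjusted p = 0.000306). Scarna2 and Scarna13 had at most 2 counts in any adult library, against 301 to 656 in the P18 parotid libraries.

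Among the H/ACA snoRNAs, Snora74a was the most abundant in counts, with 226 and 189 CPM in P18 submandibular gland, 0, 0.382 and 0.0483 CPM in adult parotid, and 125 and 179 CPM in P18 parotid. It was lower in adult parotid by 9.91 on the log2 scale (SE 0.61, edgeR adjusted p = 0.000492), and the difference was -11.92 without the second adult library, which held 6 of its 7 adult counts. Snora7a had 25.9 and 18.7 CPM in P18 submandibular gland, 0, 0.382 and 0.145 CPM in adult parotid, and 16.6 and 14.96 CPM in P18 parotid. The adult and P18 values did not overlap for either. Snora21 and Snora15, picked after their values were seen, had no adult count, which makes them at least 82.0-fold and 19.6-fold lower than in P18 parotid at a floor of 3 counts over the group.

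The C/D snoRNAs spread more widely. Snord15b, an rRNA methylation guide shown above, had 86.9 and 65.6 CPM in P18 submandibular gland, 0.0979, 0.318 and 0.386 CPM in adult parotid, and 96.3 and 74.8 CPM in P18 parotid (log2 difference -8.15, SE 0.35, edgeR adjusted p = 0.000306). Snord22, known from Xenopus to be needed for maturation of small-subunit rRNA, kept more of its counts. It had 88.2 and 69.0 CPM in P18 submandibular gland, 1.96, 2.35 and 1.88 CPM in adult parotid, and 65.5 and 50.7 CPM in P18 parotid. Its difference was -4.81 (SE 0.22, edgeR adjusted p = 0.000306).

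A few small RNAs were not lower. Snord96a, a C/D snoRNA in an intron of Gnb2l1, had 1.006 and 0.952 CPM in P18 submandibular gland, 1.47, 2.74 and 2.37 CPM in adult parotid, and 0.772 and 0.717 CPM in P18 parotid. All adult values lay above the others (log2 difference 1.56, SE 0.41, edgeR adjusted p = 0.0304), but limma on log2(TPM + 1) gave -0.38 and plain library sizes 0.34. That call stood without the first P18 parotid or the first adult library and was lost when any other library was left out. Snora65 had 2.84 and 2.64 CPM in P18 submandibular gland, 0.881, 2.29 and 2.51 CPM in adult parotid, and 2.36 and 1.57 CPM in P18 parotid. Its adult and P18 values overlapped (edgeR adjusted p = 0.978). In all, 17 of the 63 tested small RNAs were not called. Their mean levels in P18 parotid ran from 0.339 to 2.78 CPM, with a median of 0.677. For the 45 called lower they ran from 0.497 to 2696 CPM, with a median of 3.63, so the ranges overlapped.

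**Figure D3:**
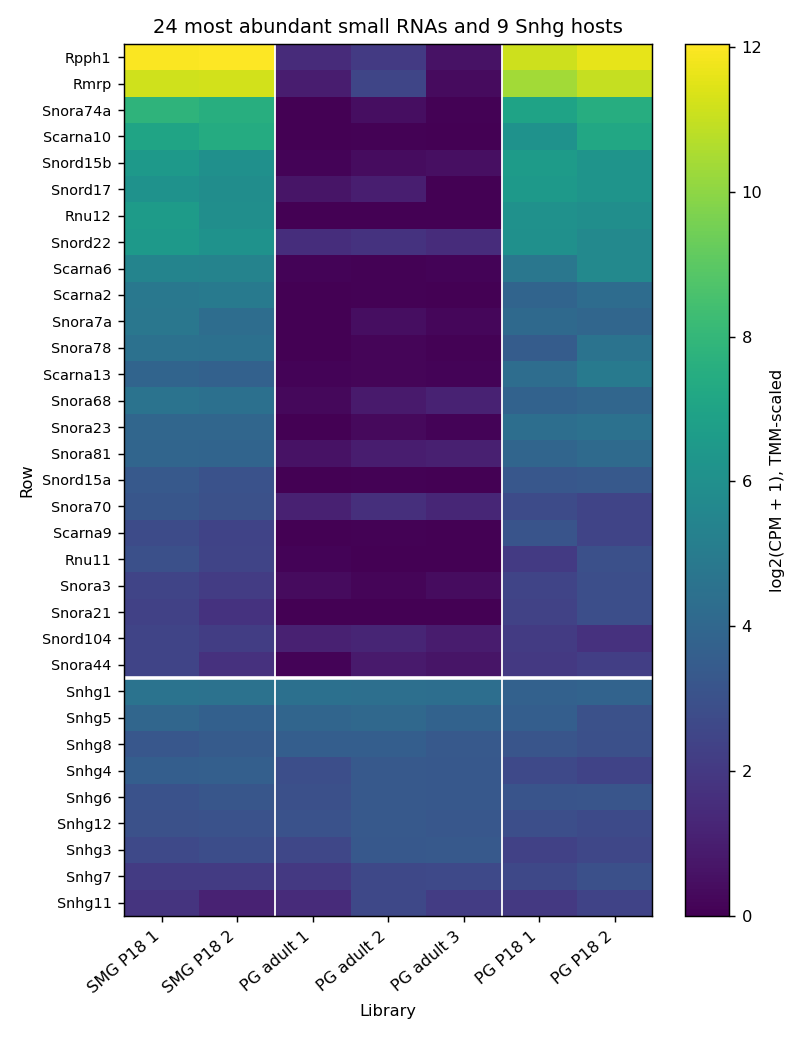
Log2(CPM + 1), scaled with TMM factors, for the 24 small RNA rows most abundant at P18 (upper block) and the 9 tested Snhg hosts (lower block), 1 column per library. Colours compare libraries within a row and not rows with each other, since CPM is not per length. The upper block darkens in the 3 adult parotid columns (Rpph1 at 0.483 to 3.12 CPM against 2255 to 4214 CPM at P18), and Snhg1 in the lower block stays between 12.3 and 23.3 CPM.

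Among the tested rows, small RNAs that were longer or more abundant at P18 had larger age differences. Of the tested small RNAs with an annotated length under 100 nucleotides, 10 of 22 were called lower and 1 higher, with a median log2 difference of -1.43. Among those from 100 to under 200 nucleotides, 27 of 33 were lower, with a median of -4.08, and among those of 200 or more, 8 of 8, with a median of -8.89. Across the 63 rows, Spearman's rho between annotated length and the age difference was -0.61, and between length and mean CPM in the P18 libraries 0.66. Between that mean CPM and the age difference rho was -0.80. The P18 parotid values enter both of these measures, so part of this rho is built in. A row near the filter at P18 also cannot show a large fall, because counts cannot go below 0. The rows share libraries, and length and abundance move together, so these are descriptions and the 2 cannot be told apart here. Lengths are those of GENCODE M21, and the deposited TPM of Scarna10 and Scarna2 imply lengths 4.11 and 6.09 times shorter.

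**Figure D4:**
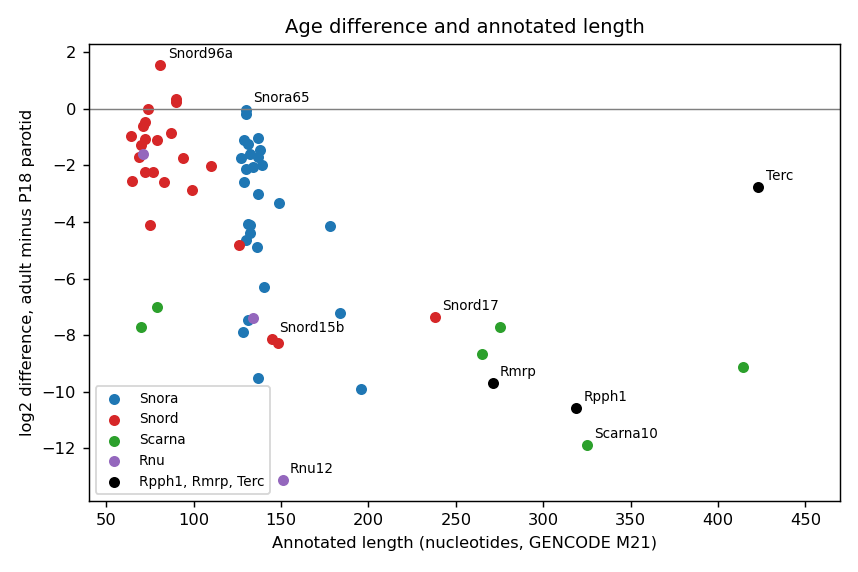
Log2 difference between adult and P18 parotid (vertical axis) against annotated length in nucleotides (horizontal axis) for the 63 tested small RNAs, 1 point per row, coloured by class. Rows under 100 nucleotides centre on -1.43 and rows of 200 or more on -8.89, with Terc at -2.77 as the member of the long group nearest to 0. Rnu12, Snora21 and Snora15 had no adult count, so their plotted values are model fits, with lower bounds of 999-fold, 82.0-fold and 19.6-fold.

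Among the tested pairs, host genes did not follow their small RNAs. By GENCODE M21, 109 of 119 annotated small RNA members lie inside a longer gene on the same strand, and for 48 of them both the small RNA and its host were tested. The 39 hosts, of which 19 encode ribosomal proteins, had a median log2 difference of 0.47 between adult and P18 parotid with TMM factors, with 3 called higher and 2 lower. The small RNA had the lower log2 difference in 47 of the 48 pairs, with a median gap of -2.59 and a range of -11.01 to 1.23. Of the 63 tested small RNAs, at least 37 passed the filter only through the P18 libraries. These pair counts therefore describe the rows that passed and support no statement on the other pairs. Snord22 and its host Snhg1 are one such pair, at -4.81 and 0.68. Snord15b differed by -8.15 while its host Rps3, a ribosomal protein gene, had 838, 524 and 486 CPM in adult parotid and 389 and 348 CPM in P18 parotid (0.74, SE 0.31, edgeR adjusted p = 0.115).

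The exception was Snord96a, at 1.56 against 0.33 for Gnb2l1. Scarna10 lies in Ncapd2, a condensin gene, which had 24.97, 11.6 and 12.3 CPM in adult parotid and 39.0 and 20.1 CPM in P18 parotid (-0.87, SE 0.40, edgeR adjusted p = 0.140). Scarna10 itself had 1 count over the adult libraries. No source used here states the counting settings, so reads of unspliced host RNA over a small RNA cannot be told apart from reads of the small RNA. In addition, 8 members lie under a gene on the other strand, Rmrp and Rnu11 among them. Near-identical copies, as among Snora7, Snora74 and Snord15 genes, are uncertain for the same reason. The 10 tested small RNAs for which GENCODE M21 gave no host, Rpph1, Rmrp, Terc, Rnu11 and Rnu12 among them, were all called lower. Over all genes tested, 15.1% were called lower. A host that this annotation lacks by name, as it lacks Snhg4 and Snhg7, would not be seen. Rows such as Rmrp, Rnu11 and Rnu12 passed the filter only through the P18 libraries, so this count describes the rows that passed.

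**Figure D5:**
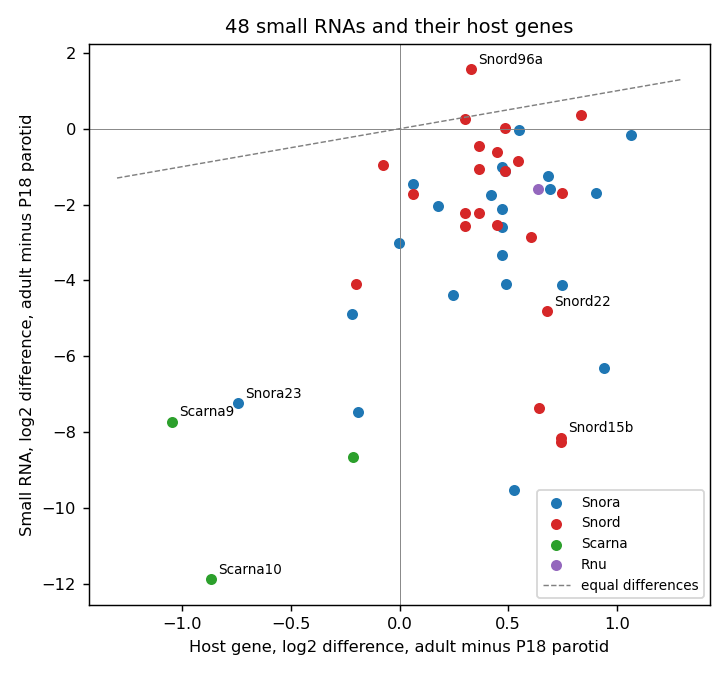
Log2 difference between adult and P18 parotid of 48 small RNAs (vertical axis) against that of their host genes (horizontal axis), with the line of equal differences dashed. Points lie below the line in 47 of 48 pairs, and hosts stay between -1.05 and 1.06 while small RNAs reach -11.88.

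Of the 9 tested Snhg hosts, 7 carried the opposite sign with TMM factors and 2 did not, and this sign depends on the scaling. Snhg1 had 23.3 and 21.97 CPM in P18 submandibular gland, 20.96, 20.3 and 19.6 CPM in adult parotid, and 12.3 and 13.0 CPM in P18 parotid. It was higher in adult parotid by 0.68 (SE 0.16, edgeR adjusted p = 0.0219), whereas plain library sizes gave -0.56 and shifted the median of all genes to -1.24. Snhg4 had 6.37, 9.35 and 9.07 CPM in adult parotid and 5.22 and 4.30 CPM in P18 parotid, and Snhg3 had 4.99, 8.91 and 9.36 CPM in adult against 3.99 and 4.93 CPM in P18 parotid. Neither was called (edgeR adjusted p = 0.0542 and 0.106). The log2 differences of the other 6 tested hosts, none called, ran from -0.35 for Snhg7 to 0.67 for Snhg5 with TMM factors. Plain library sizes put all 9 hosts below 0, from -1.57 for Snhg7 to -0.41 for Snhg3.

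Between the glands at P18 the family differed little. The comparison shares its P18 parotid libraries with the age comparison. Of the 72 tested members, edgeR called 2 higher and 2 lower in submandibular gland, where 10.2% of all 15129 genes were called higher and 14.2% lower. The median log2 difference was 0.12 over the 63 small RNAs and 0.34 over the 9 Snhg hosts, against -0.07 over all genes. The share of small RNA counts did not separate the glands, with 0.787% in submandibular gland and 0.835% in parotid, but this depended on the scaling. With TMM factors the small RNAs summed to 7262 and 7448 CPM in submandibular gland against 4314 and 6014 CPM in P18 parotid. As a share of TPM the order turned, with 4.76% and 4.59% against 5.64% and 7.17%. Adipocyte markers, at 0.806 and 0.829 CPM in sum in submandibular gland against 1661 and 5714 CPM in P18 parotid, separated the glands widely.

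Rpph1 and Rmrp were not called between the glands. Rpph1 differed by 0.60 (SE 0.66, edgeR adjusted p = 0.545) and Rmrp by 0.50 (SE 0.88, edgeR adjusted p = 0.710) with TMM factors, and plain library sizes put Rmrp at -0.09. For both, the submandibular CPM given above did not overlap the parotid CPM. Of the most abundant guides, Snora74a, Snord15b, Snord17, Snord22 and Scarna10 were not called either, nor was Rnu12, with log2 differences from -0.35 for Snord17 to 0.47 for Scarna10. Over the 6 tested Scarna rows the log2 differences ran from -0.89 to 0.82, with 1 row called lower.

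The 2 members called higher in submandibular gland were hosts. Snhg4 had 10.9 and 11.4 CPM in P18 submandibular gland against 5.22 and 4.30 CPM in P18 parotid, a log2 difference of 1.23 (SE 0.27, edgeR adjusted p = 0.0196). Snhg1, with the CPM given above, differed by 0.83 (SE 0.17, edgeR adjusted p = 0.0154). With plain library sizes both stayed positive, at 0.62 and 0.23, where the median of all genes was -0.67, and limma on log2(TPM + 1) put Snhg1 at -0.098. The log2 difference of Snord22, an intron product of Snhg1, was 0.44 (SE 0.22, edgeR adjusted p = 0.182).

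The 2 members called lower were guides. Scarna13, a Cajal body RNA whose host is Snhg10, had 13.8 and 12.4 CPM in P18 submandibular gland against 18.8 and 29.4 CPM in P18 parotid (log2 difference -0.88, SE 0.26, edgeR adjusted p = 0.0468). Snord35b, a C/D snoRNA, had 3 and 1 counts in P18 submandibular gland against 17 and 13 in P18 parotid (-2.32, SE 0.62, edgeR adjusted p = 0.0349), and -3.06 with no call without the first submandibular library. Both pairs of libraries were separate, but the counts of Snord35b were few. No member was called in a fit without the first or without the second submandibular library, 2 were called without the second and 2 without the third adult library, and none of the 4 calls stood whichever library was left out. Plain library sizes called 0 higher and 7 lower members, where 5967 of all 15129 genes were called. Limma on log2(TPM + 1) called 0 higher and 27 lower. It called 9699 of all 15129 genes, with the median of all genes at -0.79.

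Proteins that bind or make these RNAs, and snoRNA host genes without an Snhg symbol, were read from 9 lists of 69 measured genes. These partner genes were not used by the symbol rule. Of 68 tested, 5 were called higher and 6 lower in adult than in P18 parotid, with a median log2 difference of 0.09, against the 10.7% and 15.1% of all genes given above. None of the 10 tested genes on the host list was called in either comparison. Among snoRNA proteins, those called were higher in adult with TMM factors and negative with plain library sizes. Fbl, the methyltransferase of C/D particles, had 53.7, 40.3 and 35.5 CPM in adult parotid against 23.2 and 17.6 CPM in P18 parotid (1.08, SE 0.23, edgeR adjusted p = 0.0175). Gar1, a core protein of H/ACA particles, had 11.6, 10.4 and 10.4 CPM in adult parotid against 5.99 and 3.002 CPM in P18 parotid (1.26, SE 0.33, edgeR adjusted p = 0.0316), and 1.89 without the first P18 parotid library. The groups did not overlap for either. The assembly factors Znhit3 (C/D) and Naf1 (H/ACA) were also called higher with TMM factors, at 1.00 and 0.89, as was Mepce, which caps the 7SK RNA, at 0.52. Plain library sizes turned all 5 negative, from -0.72 for Mepce to -0.01 for Gar1, against the shift of the all-gene median to -1.24.

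Of the RNase P and MRP proteins, 2 of 9 were called lower in adult parotid and none higher, where 15.1% of all genes tested were called lower and 10.7% higher. This is near the share over all genes. The log2 differences of the 9 had a median of 0.04, with 5 positive and 4 negative. Rpp40 had 2.64, 2.42 and 2.99 CPM in adult parotid against 5.22 and 6.36 CPM in P18 parotid (-1.10, SE 0.26, edgeR adjusted p = 0.0239). Pop1, the largest subunit of both enzymes, had 4.80, 4.26 and 4.59 CPM in adult parotid against 8.17 and 7.03 CPM in P18 parotid (-0.74, SE 0.22, edgeR adjusted p = 0.0427). Adult and P18 values were separate for both, by less than 3-fold, where Rpph1 and Rmrp differed by 1527-fold and 833-fold in the same fit with all libraries. The other calls lower in adult were Gemin5 (-0.74), which recognises small nuclear RNAs for the SMN complex, Tep1 (-0.63), which binds telomerase and vault RNAs, Snapc3 (-1.07), a subunit of the snRNA promoter complex, and Ints6 (-0.71) of the Integrator complex. Tert, the telomerase reverse transcriptase, was not called (-1.11, SE 0.72, edgeR adjusted p = 0.279).

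Of the 5 minor spliceosome proteins edgeR called 0 in both comparisons, while 2 had an unadjusted p under 0.05 between the ages and 1 between the glands. Over all 15129 genes tested, 6348 between the ages and 5748 between the glands had such a p. Between the glands, 2 of the 68 were called, Znhit3 (1.11, edgeR adjusted p = 0.0199) and Gemin6 (0.85, edgeR adjusted p = 0.0408), both higher in submandibular gland with TMM factors, where limma on log2(TPM + 1) put Gemin6 at -0.082. Leaving out either submandibular library left 0 calls between the glands and 2 between the ages. Between the ages 3 were called without the third adult library and 0 without the second.

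Several other transcripts that lack a long poly(A) tail moved with the small RNAs in the age comparison. Replication-dependent histone genes took 947 and 935 ppm of counts in P18 submandibular gland, 49.3, 95.4 and 85.1 in adult parotid, and 989 and 752 in P18 parotid. Of 56 tested, 48 were called lower and 1 higher in adult than in P18 parotid, with a median log2 difference of -5.14. Between the glands 3 of 56 were called higher and none lower, 20 having an unadjusted p under 0.05 with edgeR, against 5748 of all 15129 genes. Hist1h3f had 0.196, 0.318 and 0.0965 CPM in adult parotid against 19.4 and 18.2 CPM in P18 parotid (-6.54, SE 0.34, edgeR adjusted p = 0.000332). Histone genes are also expressed with DNA replication, and the part of dividing cells was not tested.

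Vaultrc5, the RNA of vault particles, had 17.1 and 12.2 CPM in P18 submandibular gland, 0, 0.382 and 0 CPM in adult parotid, and 7.08 and 13.2 CPM in P18 parotid (-6.21, SE 0.83, edgeR adjusted p = 0.00449). Malat1, a nuclear RNA whose end is a triple helix in place of a poly(A) tail, had 8061 and 6850 CPM in P18 submandibular gland, 188, 438 and 402 CPM in adult parotid, and 9420 and 5491 CPM in P18 parotid (-4.44, SE 0.58, edgeR adjusted p = 0.00403). Adult values lay below all P18 values for both. Rows named for microRNA genes showed 9 lower and 2 higher of 22 tested, where 15.1% of all genes were called lower and 10.7% higher. Their share of counts was 25.5, 72.0 and 45.0 ppm in adult parotid against 116 and 119 ppm in P18 parotid. That mean share was 2.47-fold lower in adult, far less than for the small RNA members.

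Not all such RNAs were lower. Picked after the values were seen, Rn45s, the ribosomal RNA precursor, had 9232 and 12372 CPM in P18 submandibular gland, 7452, 31280 and 4643 CPM in adult parotid, and 6890 and 4778 CPM in P18 parotid, with no call (1.31, SE 0.94, edgeR adjusted p = 0.324). Neat1, a nuclear RNA with a short form that is polyadenylated and a long form that is not, had 231, 903 and 1033 CPM in adult parotid against 279 and 192 CPM in P18 parotid (1.62, SE 0.62, edgeR adjusted p = 0.0899). Adult values of both RNAs overlapped those of P18 parotid. How far poly(A) selection differed between the libraries was not tested, and library preparation and age cannot be told apart in this design, for which the labels name no preparation batch.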

How the data were processed

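Small RNA and host rows were read from the gene tables of 7 mouse libraries of polyadenylated RNA. The authors deposited raw counts per gene symbol and TPM, the count over gene length scaled to a fixed sum per library. Build mm9 is named in the submitters' processing notes, as are featureCounts 1.5.1, DESeq2 1.20.0, TopHat2 2.1.1 and Bowtie2 2.2.6. No source used here gives strand or multi-mapping settings. Another 2 columns of per-sample values matched no labelled sample and were not used.

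The deposited counts were tested in R 4.3.3 with edgeR 4.0.16 (quasi-likelihood test, TMM factors, 3 groups in 1 fit with 4 residual degrees of freedom). Genes passed a filter of about 10 counts in a library and 15 in all, and p-values were Benjamini-Hochberg adjusted over 15129 genes with a threshold of 0.05. CPM uses TMM-scaled library sizes. Alternatives were DESeq2 1.42.0, RLE or plain library sizes, no filter, limma 3.58.1 on log2(TPM + 1 or 0.1), other fits, and leaving out each library. The edgeR step was tested on simulated data. Replicates differed by 13.3 to 197 chi-square per degree of freedom, and none were merged. The report gives the range of total counts.

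The members and lists were chosen with earlier results of these data known. Named genes are the single RNAs and tested Snhg hosts, the 3 most abundant members of each other class, the 5 members of smallest adjusted p per comparison and direction, and up to 2 genes per list and direction. Tert and the host genes Rps3, Ncapd2 and Gnb2l1 were added after their values were seen. Hosts were to be taken from a RefSeq table with strand, but that table gives none, so GENCODE M21 was used, which matched 128 of 131 members. Of the listed RNase P protein rows, 1 was below the filter.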

Additional observations from a re-analysis of the deposited data

How the results depend on the processing

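Of the 47 members called between adult and P18 parotid, RLE factors gave 47, no filter 46, DESeq2 48, plain library sizes 62, a fit of the 2 groups alone 36, limma on log2(TPM + 1) or log2(TPM + 0.1) 70, and on log2(TPM + 1) without a filter 102. Without 1 library the count was 33 to 45. Of the 4 called between the glands, plain library sizes gave 7, no filter 2, the 2 groups alone 0, limma 27 with log2(TPM + 1), 16 with log2(TPM + 0.1) and 28 without a filter, and leaving out 1 library 0 to 5. Partner genes gave 10, 1, 0, 33, 30 and 31 between the glands under the same settings and 0 to 11 without 1 library, against 2. Between the ages they gave 57 with plain library sizes, 2 with the 2 groups alone, 67 with log2(TPM + 1), 67 with log2(TPM + 0.1), 68 without a filter, and 0 to 14 without 1 library, against 11. Calls over all 15129 genes rose as well with plain library sizes and limma. Between the ages they numbered 3915 in the main fit, 10957 with plain library sizes and 13059 with log2(TPM + 1). Between the glands they numbered 3686, 5967 and 9699 under the same settings.

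Replicate numbers recur across groups, but the labels tie them to no animal or batch. Same-numbered P18 libraries correlated at 0.259 in their deviations, adult and P18 parotid at 0.0833 and 0.0265, and submandibular and adult at -0.0322 and -0.00520. With the replicate block, 30 members were called between the ages and 0 between the glands, and 1 and 0 partner genes.

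As a share of TPM, small RNA members came to 4.67% in P18 submandibular gland, 0.0308% in adult parotid and 6.40% in P18 parotid, and Snhg hosts to 0.0222%, 0.0115% and 0.0309%. Without the 10 most abundant genes the small RNA share was 1.19% in P18 submandibular gland, 0.00619% in adult parotid and 0.913% in P18 parotid. The Snhg share was then 0.0136%, 0.0152% and 0.0112%, higher in adult than in P18 parotid.

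The sign of several hosts and partner genes turned with scaling, and the median of all genes shifted too. Between the ages that median was -1.24 with plain library sizes, -1.48 with log2(TPM + 1) and -1.83 with log2(TPM + 0.1). Between the glands it was -0.67, -0.79 and -0.95 under the same settings. Between the ages, plain library sizes gave -0.18 for Fbl, -0.0063 for Gar1, -0.82 for Gemin6, -0.72 for Mepce, -0.36 for Naf1, -0.24 for Znhit3, -0.56 for Snhg1, -0.77 for Snhg12, -1.14 for Snhg6 and -0.73 for Snhg8. Limma on log2(TPM + 1), with the same values without a filter, gave -0.81 for Fbl, -0.51 for Gar1, -1.31 for Gemin6, -1.28 for Mepce, -0.73 for Naf1, -1.13 for Rnpc3, -0.81 for Znhit3, -1.21 for Snhg1, -1.36 for Snhg12, -1.10 for Snhg3, -1.003 for Snhg4, -1.14 for Snhg5, -1.78 for Snhg6, -1.31 for Snhg8 and -0.38 for Snord96a. With log2(TPM + 0.1) these were -0.83 for Fbl, -0.56 for Gar1, -1.47 for Gemin6, -1.37 for Mepce, -0.97 for Naf1, -1.23 for Rnpc3, -0.89 for Znhit3, -1.23 for Snhg1, -1.43 for Snhg12, -1.15 for Snhg3, -1.11 for Snhg4, -1.20 for Snhg5, -1.83 for Snhg6, -1.38 for Snhg8 and -0.40 for Snord96a. Between the glands, log2(TPM + 1) gave -0.082 for Gemin6, -0.098 for Snhg1 and -0.57 for Snhg8, with and without a filter, and with it -0.69 for Rnu12, -0.73 for Scarna6 and -0.66 for Snhg12. With log2(TPM + 0.1) these were -0.089 for Gemin6, -0.69 for Rnu12, -0.099 for Snhg1 and -0.59 for Snhg8. The cause was not tested. Of the other values of named genes under an alternative, 1037 stayed on the same side of the threshold, 116 of them uncalled values that changed sign, while 136 lost the call and 70 gained it with their sign kept. Adult counts of 0 to 10 limit the precision of most snoRNA differences.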
